A study of Mus musculus with 4 samples.

Results

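The genes described here are 10 mouse genes, Adi1, Tmem196, Rab6b, Galc, Abhd1, Rec8, Kantr, B3galt6, Rbm28 and Acot1, out of 18193 genes named on the array. They were chosen by their readout in the comparison below: each was picked because a probe set read at or near background on both wild-type arrays and clearly higher on both knockout arrays. All 23 probe sets annotated to exactly 1 of these genes were examined, out of 45037. RNA came from the adrenals of 2-month-old male mice, with 2 samples labelled V1a_KO (KO), which lack the V1a vasopressin receptor, and 2 labelled wild type (WT), each on 1 Affymetrix Mouse Genome 430 2.0 array. The labels name no strain, littermate status or pooling, and the part of the receptor gene that was removed is not given in the sources used here. They do not say that the samples came from separate animals, so the spread between samples may be technical.

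The adrenal gland has a cortex that makes corticosteroids and a medulla whose chromaffin cells release catecholamines, and V1a is a Gq-coupled receptor for vasopressin. The 10 genes belong to no common pathway. Adi1 acts in the recycling of methionine. Galc, Acot1 and Abhd1 belong to families that handle lipids and other esters, and B3galt6 adds sugar to proteoglycans. Rab6b steers vesicles, Rec8 and Rbm28 work in the nucleus and nucleolus, Kantr is a noncoding RNA, and Tmem196 is a membrane protein.

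The values are log2 expression units per probe set. The lowest value on the arrays was 2.30, and 22.8% to 26.1% of the probe sets of an array sat exactly on it, so this value is a floor set by the background model and not a measured level. Under 4 units lay 62.0% to 62.3% of the probe sets of each array, and a probe set entered the tests if it reached 4 units on at least 2 of the 4 arrays. WT 1 stood apart from the rest: across tested probe sets it correlated with the other arrays at 0.919 to 0.924, while those correlated with each other at 0.974 to 0.986. Avpr1a, which encodes V1a, read 2.32 to 2.60 on the KO arrays and 2.31 to 2.53 on the WT arrays, at or near the floor throughout, and so did not check the genotype labels. All 10 markers fixed for the adrenal cortex and all 9 measured markers of chromaffin cells read at or above 4 on every array.

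For each gene the picked probe set is the one with the largest gap between the lowest KO and the highest WT value. On these 10 probe sets, the KO values ran from 4.82 to 8.77 and the WT values from 2.37 to 5.50. The difference, KO minus WT, lay between 2.06 in Acot1 and 5.20 in Adi1, with a median of 3.61. For 9 of the 10 genes both WT arrays were under 4. Rbm28 was the exception: its probe set read 5.11 and 5.50 on the WT arrays, well above the floor, and the description as near the floor does not hold for it. The KO arrays differed from each other by 0.06 to 0.79 and the WT arrays by 0.02 to 0.48, less than the gap between the genotypes in each gene. On the KO arrays the levels ran from low to high: B3galt6 lay above 11.6% and 16.7% of the tested probe sets of the KO arrays and Acot1 above 16.4% and 20.6%, while Adi1 lay above 77.0% and 76.2%. In bulk tissue, more RNA per cell and more cells of an expressing type cannot be told apart.

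**Figure D1:**
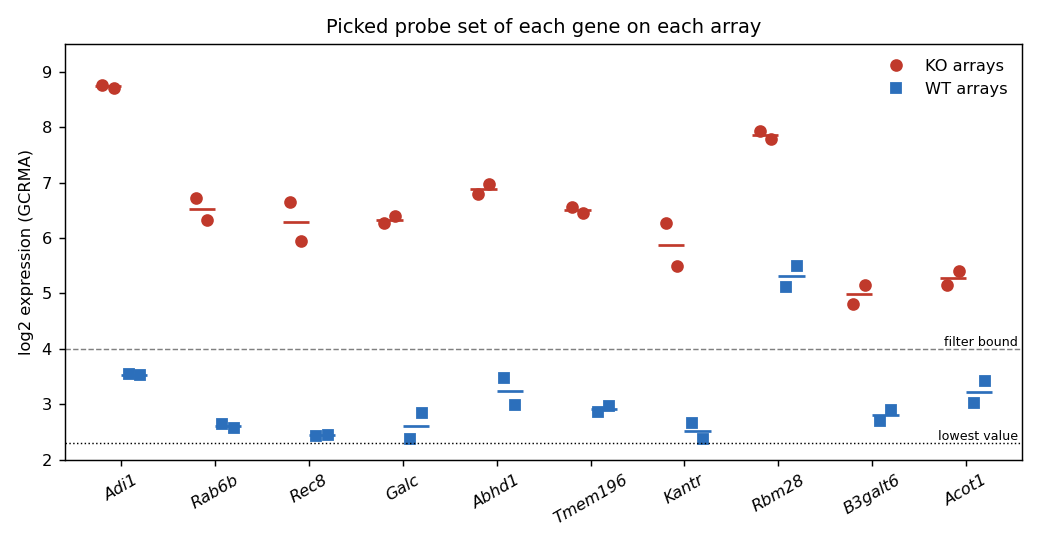
Expression of the picked probe set of each of the 10 genes on each array, in log2 units on the vertical axis, with KO arrays as circles, WT arrays as squares and short lines for the mean of 2 arrays. The genes run from the largest difference (Adi1, 5.20) to the smallest (Acot1, 2.06), the WT values of all but Rbm28 lie under the filter bound of 4, and the groups do not overlap in any of the 10.

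These values chose the genes, so they carry no test here. In the limma fit over all 17228 tested probe sets, 0 (0%) passed an adjusted p of 0.05, with a smallest adjusted p of 0.0792, and 885 had an unadjusted p under 0.05. A looser threshold asked for a 2-fold difference or more and an unadjusted p below 0.01. By it, 60 probe sets (0.348%) were higher and 84 (0.488%) lower in KO, and the 10 picked probe sets were among the 60. That count moved widely when an array was left out. The spread then came only from the genotype that kept both arrays, so the change does not show which calls rest on a single array. Both KO arrays lay above both WT arrays on 17.4% of tested probe sets and below them on 20%. Of the 23 probe sets of the 10 genes, 13 passed the filter, and 9 of the 10 picked ones passed it through the KO arrays alone, so these could only differ upwards.

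Adi1 encodes acireductone dioxygenase, an enzyme of the methionine salvage pathway, which returns the methylthio group left over from polyamine synthesis to methionine. Its picked probe set (1438758_at) read 8.77 and 8.70 on the KO arrays, against 3.54 and 3.52 on the WT arrays. The arrays of a genotype nearly coincided, and the difference was 5.20 (SE 0.16, n = 2 arrays per genotype). The other probe sets of Adi1 disagreed with it and with each other. Probe set 1438759_x_at, designed from the same source sequence, read 8.11 and 8.04 in KO and 5.85 and 6.49 in WT, a difference of 1.91 (SE 0.28). Probe set 1449076_x_at, designed from the RefSeq transcript, read 8.47 and 8.50 in KO and 8.55 and 9.38 in WT, a difference of -0.48 (SE 0.34). The RefSeq-based probe set thus read Adi1 as abundant in both genotypes, and slightly lower on both KO arrays. The suffix _x_at marks probe sets whose probes may bind other transcripts too. Of the other methionine salvage and polyamine genes, 13 were tested, with 0 past either threshold and a median difference of -0.03. This median was -0.06 at the lowest, without KO 2, and 0.14 with the mean of a gene's tested probe sets. Over all tested genes the median was -0.05, with 0.04 without WT 1 and -0.15 without WT 2, so small shifts of a list depend on the WT arrays. Those with the smallest p were Srm, the spermidine synthase, at -0.36 (SE 0.16), and Odc1, the ornithine decarboxylase that starts polyamine synthesis, at 0.57 (SE 0.27).

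Galc encodes the lysosomal galactosylceramidase, which removes galactose from galactosylceramide and psychosine. The enzyme is best known from myelin, and its loss causes Krabbe disease in humans and the twitcher phenotype in mice. Probe set 1452907_at read 6.26 and 6.39 in KO, against 2.37 and 2.84 in WT, a difference of 3.72 (SE 0.23, 2 arrays per genotype). Neither of the other Galc probe sets showed any signal that varied: 1420547_at read 2.75 and 1449900_at 2.30 on all 4 arrays. Of the genes fixed for lysosomal sphingolipid breakdown, 14 others were tested, 0 passed either threshold, and the median difference was -0.12, with 0.01 without WT 1, -0.25 without WT 2 and -0.03 without KO 1. Both KO arrays lay above both WT arrays in 0 of the 14 and below in 2, beside 17.4% and 20% of all tested probe sets. Glb1, the lysosomal beta-galactosidase, differed by -0.60 (SE 0.29) and Arsa, the arylsulfatase that breaks down sulfatide, by -0.37 (SE 0.30).

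Acot1 encodes a cytosolic thioesterase that splits long-chain acyl-CoA into free fatty acid and coenzyme A, and it lies in a cluster of near copies. Its own probe set, 1449065_at, read 5.15 and 5.40 in KO, against 3.02 and 3.42 in WT, a difference of 2.06 (SE 0.23, n = 2 arrays per genotype). A probe set annotated to both Acot1 and Acot2 (1422997_s_at) also read higher on both KO arrays, at 4.93 and 5.05 against 4.11 and 3.99 in WT, a difference of 0.94 (SE 0.17), and cannot be assigned to 1 of the 2 genes. Acot2, the mitochondrial paralogue next to Acot1, read 7.35 and 7.43 in KO and 7.17 and 7.13 in WT on its brighter probe set, a difference of 0.24 (SE 0.16). Acot3 and Acot4 were at the floor, at 2.30 to 2.32 on every array. Among thioesterase and acyl-CoA synthetase genes, 12 others were tested, 0 passed either threshold, and the median difference was -0.02 (-0.14 to 0.02 leaving out each array). Acot13 differed by -0.74 (SE 0.28) and Acot8, a peroxisomal thioesterase, by -0.44 (SE 0.21).

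Abhd1 carries the name of the alpha/beta hydrolase fold, shared by many esterases and lipases, but the gene table of GRCm38.p6 lists the mouse gene as a transcribed pseudogene. Its 1 probe set, 1418148_at, read 6.80 and 6.97 in KO, against 3.48 and 3.0 in WT, a difference of 3.65 (SE 0.24, n = 2 arrays per genotype). Abhd1 overlaps Preb, a gene of transport from the endoplasmic reticulum, on chromosome 5. The tested probe sets of Preb differed by -0.16 (SE 0.39) and -0.19 (SE 0.26), with overlapping groups, so the overlapping gene did not share the pattern of Abhd1. Among the 17 other alpha/beta hydrolase domain genes tested, the groups were apart with KO lower in 8 and higher in 2, beside 20% and 17.4% of all tested probe sets, and 0 passed either threshold. Their median of -0.30 was -0.07 without WT 1 and -0.51 without WT 2. Abhd8 differed by -0.62 (SE 0.36) and Abhd6, which degrades the endocannabinoid 2-arachidonoylglycerol, by -0.49 (SE 0.26).

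B3galt6 encodes a galactosyltransferase of the Golgi that helps build the linker by which glycosaminoglycan chains hang on proteoglycans. The picked probe set, 1435252_at, read 4.82 and 5.15 in KO, against 2.71 and 2.91 in WT, a difference of 2.18 (SE 0.21, n = 2 arrays per genotype). Probe set 1440340_at stood just outside the bounds used for the pattern, with 3.76 and 3.52 in KO and 2.30 and 2.56 in WT, a difference of 1.21, and was too dim to test. The RefSeq-based probe set, 1421155_at, read 3.69 and 3.70 in KO and 3.71 and 3.89 in WT, a difference of -0.10. As with Adi1, the probe set designed from the RefSeq transcript did not read higher in KO. Here, however, it was under 4 on all arrays and was not tested. The picked probe sets of Abhd1, Acot1 and Rec8, also from RefSeq transcripts, did read higher in KO, as their choice fixes. In the list of linker and chain synthesis, 14 other genes were tested, 0 passed either threshold, and 7 had a higher and 7 a lower mean in KO. Their median was -0.05, and -0.28 without WT 2. Pxylp1, which removes a phosphate from the linker, read 7.03 and 7.72 in KO and 4.54 and 6.08 in WT, a difference of 2.07 (SE 0.64), and Ext1, a polymerase of heparan sulfate, differed by -0.51 (SE 0.18).

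Rab6b encodes a small GTPase of traffic between the Golgi and the endoplasmic reticulum, found mostly in neurons, while its paralogue Rab6a is used by nearly all cells. Probe set 1434914_at read 6.72 and 6.33 in KO, against 2.64 and 2.57 in WT, a difference of 3.92 (SE 0.21, n = 2 arrays per genotype). A further probe set, 1460617_s_at, also read higher, at 4.48 and 3.92 in KO against 2.33 and 2.37 in WT, a difference of 1.85. It was not tested, since only KO 1 reached 4. The remaining pair, 1437107_at and 1455924_at, designed from the same source sequence as 1460617_s_at, read 2.43 to 2.56 in KO and 2.30 to 2.69 in WT. Rab6a was bright throughout, and its 3 probe sets differed by 0.11 (SE 0.19), 0.22 (SE 0.18) and 0.99 (SE 0.66, with WT 1 the low array at 7.38). Of 13 other genes of the Rab6 family and its partners, 0 passed either threshold, with a median of -0.06 (-0.10 to 0.07 leaving out each array). Golga4, a golgin, read 8.31 and 8.76 in KO and 6.28 and 8.46 in WT, a difference of 1.16 (SE 0.83) made mostly by WT 1. Dennd5b differed by 0.42 (SE 0.16).

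Rec8 encodes the kleisin subunit of meiotic cohesin, the ring that holds sister chromatids together in germ cells. Its 1 probe set, 1419147_at, read 6.65 and 5.95 in KO, against 2.42 and 2.46 in WT, a difference of 3.86 (SE 0.30, n = 2 arrays per genotype). The KO arrays were 0.70 apart and the WT arrays nearly equal. All 8 germ cell markers, Ddx4, Dazl, Sycp1, Sycp3, Tex101, Prm1, Prm2 and Tnp1, read under 4 on every array, and their mean was 2.39 and 2.41 in KO and 2.38 and 2.44 in WT. Readings this near the floor say little about level, and the part of germ cells in the reading of Rec8 was not tested. Among the other cohesin and meiotic axis genes, 12 were tested, 0 were past the adjusted threshold, and the median was -0.27, with -0.44 without WT 1, -0.10 without WT 2, -0.13 without KO 1, and -0.05 with the mean of a gene's tested probe sets. At the unadjusted threshold 2 were lower and 0 higher: Syce2, a synaptonemal complex gene, at 5.84 and 5.85 in KO and 7.25 and 7.13 in WT (-1.35, SE 0.16), and Esco1, which acetylates cohesin, at 7.27 and 7.32 in KO and 8.19 and 8.41 in WT (-1.01, SE 0.18). Over all 9 lists these were the only genes past that threshold, among 137 distinct genes tested, where 0.287% of all tested genes were past it as higher and 0.405% as lower. The count of list genes past it was 12 without WT 2 and 0 without KO 1 or without KO 2.

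Rbm28 encodes a nucleolar RNA-binding protein needed to assemble the large ribosomal subunit. Probe set 1452091_a_at read 7.94 and 7.79 in KO, against 5.11 and 5.50 in WT, a difference of 2.55 (SE 0.22, n = 2 arrays per genotype). The other probe set, 1426513_at, designed from the same source sequence, read 6.10 and 5.87 in KO and 5.79 and 5.46 in WT, a difference of 0.36 (SE 0.21). Both probe sets read higher on the KO arrays, but by unequal amounts. All 26 other genes of large subunit assembly were tested, and 0 passed either threshold. Their median difference was 0.15, with both KO arrays above both WT arrays in 11 and below in 2 of the 26, beside 17.4% and 20% of all tested probe sets. Leaving out each array gave medians of 0.11 to 0.16. The smallest p belonged to Rrp1b at 0.94 (SE 0.24) and Noc2l at 0.78 (SE 0.21), both nucleolar proteins.

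Kantr is a long noncoding RNA next to Kdm5c, a histone demethylase gene on the X chromosome. Probe set 1438575_a_at read 6.28 and 5.49 in KO, against 2.67 and 2.38 in WT, a difference of 3.36 (SE 0.34, n = 2 arrays per genotype), with the widest distance between KO arrays among the 10 genes. Probe set 1438576_x_at, from the same source sequence, read 2.70 and 2.50 in KO and 2.30 and 2.41 in WT. Probe set 1441816_at stayed between 2.37 and 2.55 on all arrays, and 1428499_at read 3.88 and 3.81 in KO and 4.52 and 3.92 in WT, a difference of -0.37. Kdm5c differed by 0.35 (SE 0.42) on its brightest probe set, and by 0.15 (SE 0.23) and -0.27 (SE 0.22) on its other tested ones. Of 16 other long noncoding RNAs tested, 0 passed either threshold, and the median was -0.20 (-0.18 to -0.12 leaving out each array). Snhg6, a host gene of a small nucleolar RNA, differed by 0.66 (SE 0.16) and Snhg4 by -0.47 (SE 0.21).

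Tmem196 encodes a protein with membrane-spanning segments and was read by 1 probe set, 1456233_at. It gave 6.56 and 6.45 in KO, against 2.87 and 2.97 in WT, a difference of 3.58 (SE 0.16, n = 2 arrays per genotype). The arrays of each genotype lay within 0.11 of each other, and no other probe set of this gene was measured.

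Across the 6 genes with more than 1 probe set, the further probe sets mostly did not follow the picked one. There were 13 of them. Both KO arrays lay above both WT arrays in 6, by at least 1 unit in 2 (Adi1 1438759_x_at and Rab6b 1460617_s_at), and below them in 3, while the groups overlapped or tied in 4. Over all tested probe sets 17.4% lay above and 20% below, but no such share was counted for untested ones. Some of the gaps were tiny, such as 0.013 in Rab6b 1437107_at and 0.003 in B3galt6 1421155_at. Their differences ran from -0.48 to 1.91. Under 4 on all arrays were 8 of the 13, and only 3 were tested, so most of them say little about level. Of the 10 picked probe sets 3 came from a RefSeq transcript (Abhd1, Acot1 and Rec8), where 18.2% of all tested probe sets did. The rest came from other deposited sequences, per the platform annotation.

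**Figure D2:**
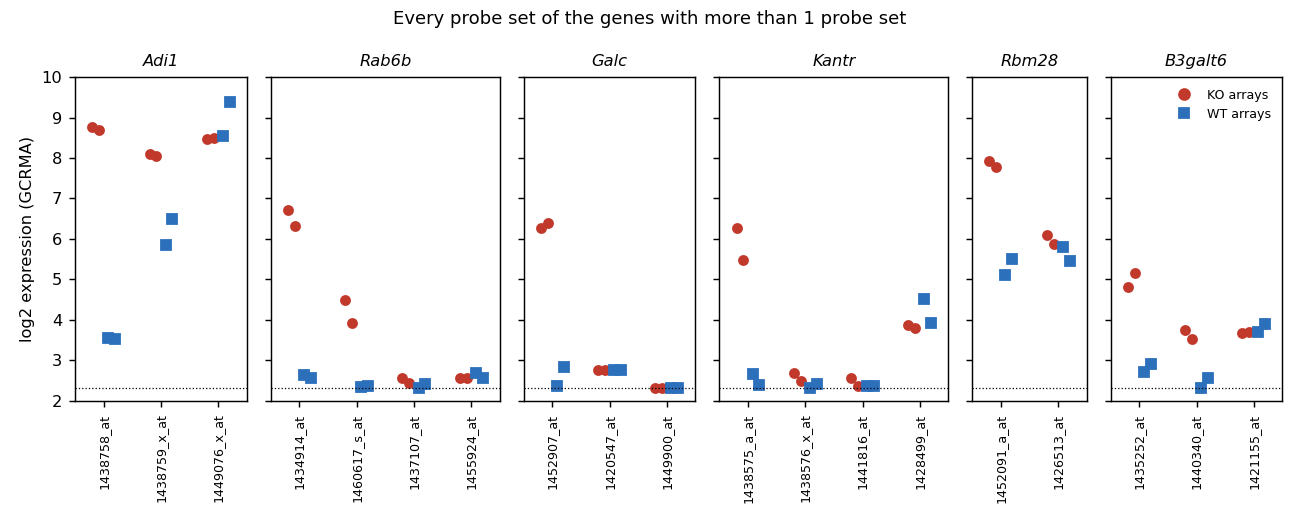
Every probe set of the 6 genes read by more than 1, with KO arrays as circles and WT arrays as squares in log2 units, ordered within a gene by the difference between genotypes, and with the lowest value of the arrays dotted. The first probe set of each gene shows a difference of 2.18 to 5.20 and the others at most 1.91, and probe set 1449076_x_at of Adi1 lies at 8.47 to 9.38 on all 4 arrays.

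The genes are spread over 7 chromosomes of GRCm38.p6, with 4 of the 10 on chromosome 12, where 3.52% of the tested genes lie. In order along chromosome 12 these are Adi1 (28675207 to 28682175), Acot1 (84009502 to 84017670), Galc (98202287 to 98259459) and Tmem196 (119946127 to 120021242). Neighbours in that order are 14.2 to 55.3 Mb apart, so they form no cluster. None of the 10 lies on chromosome 10, which carries Avpr1a. The remaining places are chromosome 9 for Rab6b (103111667 to 103185276), chromosome 5 for Abhd1 (30950066 to 30955095), chromosome 14 for Rec8 (55618002 to 55625395), chromosome X for Kantr (152294824 to 152327493), chromosome 4 for B3galt6 (155989466 to 155992678) and chromosome 6 for Rbm28 (29123573 to 29164724). Since the genes were picked by their readout, the share on chromosome 12 is a description.

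The nearest tested genes on either side did not share the differences of the picked genes. Of 19 such neighbours 0 passed either threshold, and their differences ran from -1.14 to 0.87 with a median of -0.06. Some of them were not close. Flrt2, at -1.14, lies 2417 kb from Galc, and Spata7 lies 369 kb from it. Itgb8 lies 708 kb from Tmem196, which had no tested gene after it. Both KO arrays lay above both WT arrays in 4 and below in 3 of the 19, near the 17.4% and 20% of all tested probe sets. The closest to a shared direction was Rec8, 7.97 kb from Irf9 and 5 bases from Ipo4. Irf9, a transcription factor of the interferon response, read 6.83 and 6.79 in KO and 6.16 and 6.19 in WT, a difference of 0.63 (SE 0.16, limma adjusted p = 0.794). Ipo4, a nuclear import receptor, read 10.18 and 10.01 in KO and 8.46 and 9.99 in WT, a difference of 0.87 (SE 0.58) made mostly by WT 1. Beside Adi1, Rnaseh1 differed by 0.32 (SE 0.22) and Trappc12 by -0.06 (SE 0.17). Sdf4, which lies 165 bases from B3galt6, differed by -0.38 (SE 0.29).

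**Figure D3:**
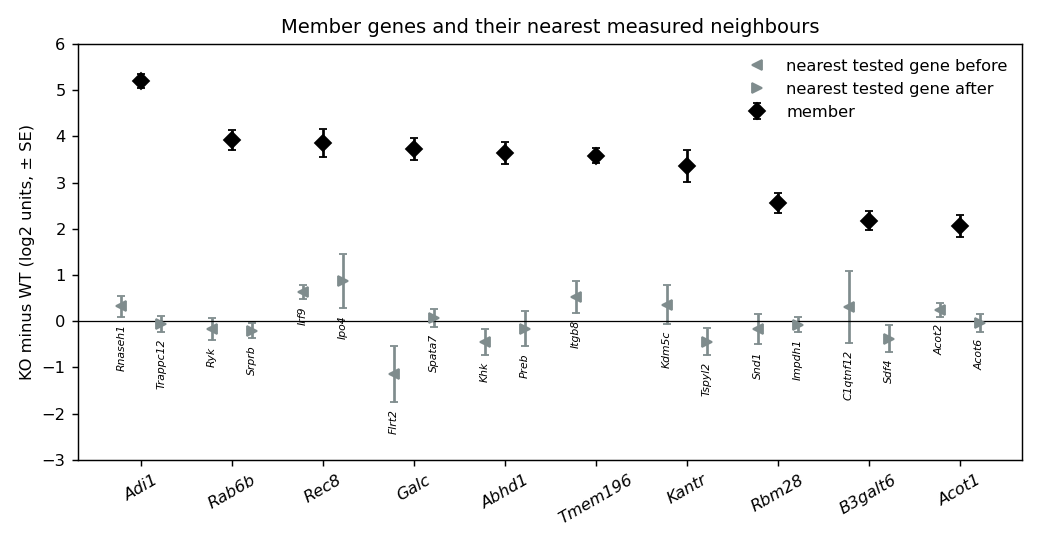
Difference between genotypes, KO minus WT in log2 units with the moderated SE, for the picked probe set of each gene (diamonds) and for the nearest tested gene before and after it on the chromosome (triangles, named). The 10 genes lie between 2.06 and 5.20 and the 19 neighbours between -1.14 and 0.87.

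Sequence upstream of the genes was examined because they were picked for reading higher together. RefSeq windows of 300 bases (GRCm38.p6, 250 before to 50 after the start) were at hand for 8 of the 10, all but Adi1 and Abhd1. The motifs searched on both strands were CRE (TGACGTCA), its short form (TGACG, contained in CRE), the SF-1 site (CAAGGTCA), the AP-1 site (TGANTCA), the TATA box (TATAAA), the CCAAT box (CCAAT) and the GC box (GGGCGG). CRE, SF-1, AP-1 and TATA letters were in 0 of the 8 windows, against 1.79%, 1.56%, 7.81% and 13.6% of all 32851 windows. The short CRE form was in 1 (Rbm28), against 20.8%. CCAAT letters were in 3 (Acot1, Rec8 and Kantr), against 37.4%, and GC box letters in 4 (Rbm28, Rab6b, Acot1 and Galc), against 35.7%. No motif was common to the 8. The bases before the start are shown for the 2 windows with repeated CCAAT letters, 3 matches in Rec8 and 4 in Kantr, and for B3galt6, whose window holds the most CpG pairs, 48, where the median of all windows was 7. Capitals mark CCAAT or its reverse complement ATTGG in Rec8 and Kantr. In B3galt6 they mark a word of 12 bases that occurs 8 times, while in each of the other 7 windows every word of this length occurs 1 time.
Rec8, chr14:55617916-55618165, plus strand: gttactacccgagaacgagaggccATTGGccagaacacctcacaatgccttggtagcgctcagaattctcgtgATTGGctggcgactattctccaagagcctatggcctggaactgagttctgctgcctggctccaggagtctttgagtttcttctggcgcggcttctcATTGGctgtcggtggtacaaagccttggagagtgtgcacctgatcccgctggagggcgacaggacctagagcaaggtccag
Kantr, chrX:152327494-152327743, minus strand: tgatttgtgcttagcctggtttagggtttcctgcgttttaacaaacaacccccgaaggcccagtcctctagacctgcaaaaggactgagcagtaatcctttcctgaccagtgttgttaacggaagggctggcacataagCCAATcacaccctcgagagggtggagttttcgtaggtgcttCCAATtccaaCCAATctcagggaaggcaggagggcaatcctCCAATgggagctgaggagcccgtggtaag
B3galt6, chr4:155992679-155992928, minus strand: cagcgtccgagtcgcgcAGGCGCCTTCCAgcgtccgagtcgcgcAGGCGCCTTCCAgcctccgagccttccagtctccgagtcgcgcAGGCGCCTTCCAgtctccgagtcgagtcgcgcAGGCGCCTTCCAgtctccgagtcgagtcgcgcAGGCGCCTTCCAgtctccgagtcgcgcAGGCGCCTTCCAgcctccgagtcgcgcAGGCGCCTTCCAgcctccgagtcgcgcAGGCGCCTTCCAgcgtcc
A match is a description of the letters and does not show that a factor binds there.

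How unusual the pattern is was counted over all probe sets, without a test. With near the floor taken as under 4 on both WT arrays, and higher as both KO arrays at or above 4 and at least 1 unit above the higher WT array, 28 of 45037 probe sets (0.0622%) met it. The mirrored pattern, near the floor on both KO arrays and higher on both WT arrays, was met by 19 (0.0422%). The 28 covered 24 genes, 9 of them among the 10 described here. These counts depended on having both arrays of each genotype: the 28 became 53 without WT 1, 286 without WT 2, 47 without KO 1 and 56 without KO 2, and the 19 became 37, 192, 32 and 47. The count for the 10 genes was 9 in each of these cases, which their choice fixes, but 6 with a bound of 3, 7 with a gap of 2 units and 8 over plain probe sets alone.

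**Figure D4:**
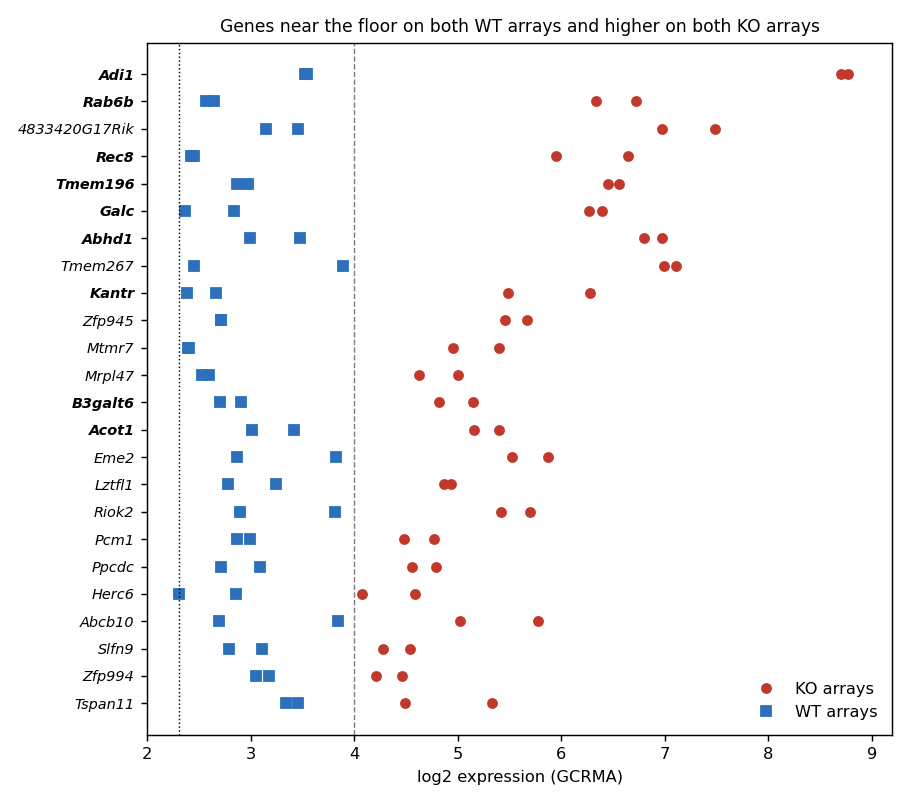
Values on each array, in log2 units on the horizontal axis, of the 24 genes with a probe set near the floor on both WT arrays (squares) and higher on both KO arrays (circles), ordered by the gap between the lowest KO and the highest WT value, with the genes described here in bold. The gap runs from 5.16 in Adi1 to 1.03 in Tspan11.

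Among genes outside the 10, likeness was measured as the gap between the lowest KO and the highest WT value on the 4 arrays. The 10 largest gaps belonged to 4833420G17Rik, Tmem267, Zfp945, Mtmr7, Mrpl47, Eme2, Lztfl1, Riok2, Pcm1 and Ppcdc. 4833420G17Rik read 7.48 and 6.97 in KO, against 3.15 and 3.45 in WT. Tmem267, which lies 1.97 kb from it on chromosome 13, read 6.99 and 7.11 in KO, against 2.45 and 3.89 in WT. These 2 adjoining genes shared the pattern, and 2 further probe sets of 4833420G17Rik were also higher on both KO arrays, with differences of 2.27 (SE 0.23) and 2.21 (SE 0.34). Zfp945, a zinc finger gene, read 5.67 and 5.45 in KO, against 2.72 on both WT arrays. Mtmr7, a myotubularin-related phosphatase gene, read 5.39 and 4.95 in KO, against 2.40 and 2.39 in WT.

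Probe sets of 1 gene also disagreed among these genes. Mrpl47, a mitochondrial ribosomal protein gene, differed by 2.25 (SE 0.21) on its floor-level probe set and by -0.92 (SE 0.49) on a bright one, 1429054_at. Ppcdc, an enzyme of coenzyme A synthesis, differed by 1.77 (SE 0.22) on one and by -1.42 (SE 0.31) on another, 1424335_at, with the groups apart in opposite directions. Riok2, a kinase of ribosome assembly, differed by 2.20 (SE 0.38), 1.33 (SE 0.16) and 2.65 (SE 0.72) on its 3 tested probe sets, all of 1 sign. A further probe set at least 1 unit higher on both KO arrays was present in 2 of the 6 genes described here that had several, and in 2 of 13 of the other genes with the pattern.

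Markers of other cells were read on the same arrays as the sum of each list on the linear scale, given as its log2. Macrophage markers, 8 of 8 at or above 4 on all arrays, summed to 12.52 and 13.08 in KO, against 11.95 and 12.29 in WT. Single markers differed in direction. Ctss, the brightest, read 11.39 and 12.02 in KO, against 10.64 and 11.12 in WT. Cd68 and C1qb were also higher on both KO arrays, C1qb with WT 1 low at 6.31. Csf1r was lower on both, at 7.90 and 8.05 in KO, against 8.20 and 8.20 in WT. Adgre1, C1qa, Mrc1 and Lyz2 overlapped. Lymphocyte markers summed to 9.95 and 9.75 in KO, against 9.67 and 8.17 in WT, with 3 of 7 at or above 4 on all arrays and Cd3e, Cd3g, Cd79a and Cd8a under 4 on every array. The lymphocyte sum was carried by Ighm, an immunoglobulin heavy chain, at 9.65 and 9.39 in KO, against 8.85 and 5.98 in WT. Ptprc, a marker of all leukocytes, overlapped, at 6.23 and 6.91 in KO, against 6.84 and 6.96 in WT, as did the mean of the list, at 4.61 and 4.54 in KO, against 4.83 and 4.17 in WT. The part of these cells in the readings of the 10 genes was not tested. Capsule and fibroblast markers, 8 of 8 at or above 4, summed to 10.94 and 11.25 in KO, against 11.68 and 11.27 in WT. KO 2 and WT 2 were thus nearly equal, and the mean of the list overlapped, at 7.58 and 7.81 in KO, against 7.79 and 7.82 in WT. Cortex markers summed to 16.74 and 16.68 in KO, against 16.82 and 16.80 in WT. Chromaffin cell sums overlapped, at 15.97 and 15.36 in KO, against 16.05 and 15.39 in WT, with replicate 1 the higher in each genotype. Sums of Schwann cell and neuron markers, 5 of 8 at or above 4, which bear on Rab6b and Galc, overlapped, at 10.48 and 9.89 in KO against 10.60 and 9.97 in WT. Sums of liver markers overlapped, at 8.75 and 10.45 in KO, against 10.94 and 9.07 in WT. The KO sums came mostly from Cyp2e1, at 8.61 and 10.41 in KO, against 9.18 and 8.50 in WT. Alb read 8.86 on WT 1 and 2.42 to 2.43 on the other arrays. Ttr read 8.95 on WT 1 and 2.30 to 2.88 elsewhere, and Apoa1 6.88 and 2.48 to 2.51. Serpina1b, also of this list, read 2.30 in KO, against 7.97 and 7.20 in WT. Erythroid marker sums also overlapped, at 8.06 and 8.31 in KO, against 10.44 and 7.92 in WT. The sums of both lists were highest on WT 1. Sums of endothelial markers overlapped too, as did those of fat cells, at 12.30 and 13.42 in KO, against 13.32 and 12.84 in WT. Within the fat cell list, 3 of the 8 measured genes were lower on both KO arrays, beside 20% of all tested probe sets. Adipoq, Fabp4, Cidec and Retn overlapped between the genotypes, and Lep read 2.30 on every array. The lower ones were Ucp1, Cidea and Slc2a4. Ucp1, the uncoupling protein of brown fat, read 2.80 and 5.91 in KO, against 10.05 and 7.24 in WT. Cidea, a lipid droplet gene high in brown fat, read 3.37 and 6.06 in KO, against 9.78 and 6.78 in WT. Slc2a4, the insulin-responsive glucose transporter, read 5.61 and 6.31 in KO, against 7.56 and 7.48 in WT. The part of fat in the readings of the 10 genes was not tested.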

How the data were processed

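Adrenal RNA of male mice, 2 KO and 2 WT samples, was read on 4 arrays. Per the labels' protocols, the authors made log2 expression values per probe set with GCRMA in Bioconductor 3.14. This method models background from the probe sequences, makes the arrays comparable and combines the probes of a set. Weak probe sets therefore pile up at a floor, and the size of a difference that involves values near it is uncertain. The log2 scale was read from the values. No genome build applies to them, and a GCRMA version is not given in the sources used here.

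From these deposited values, with no further normalization, 64 control probe sets were left out. Probe sets were named from the platform annotation through the gene ID in the GRCm38.p6 gene table (34741 matched, 0 symbols changed): 34945 had 1 gene, 932 several and 9160 none. Probe sets at or above 4 on at least 2 arrays, 17228 in all, were fitted with limma 3.58.1 in R 4.3.3 (lmFit, eBayes, genotype only, Benjamini-Hochberg over all of them). Residual degrees of freedom were 2 and prior ones 1.73. Standard errors are moderated. The number of arrays limits the precision.

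For lists and neighbours the tested probe set with the highest mean stood for its gene. For each list, genes past the unadjusted threshold were named, otherwise the 2 with the smallest p. All probe sets of the 10 genes, the paralogues and overlapping or adjoining genes Rab6a, Acot2, Acot3, Acot4, Kdm5c and Preb, and the 10 other genes with the largest gap were named too. The members, lists, motifs and tests were chosen with earlier results of these data known. The word count in the promoters was added after the sequences were seen. The fit was tested on simulated data. Alternatives were other filters, normalizations, variance models, floor bounds and gaps, plain probe sets, a gene's mean over probe sets, the replicate number as a block, and leaving out each array.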

Additional observations from a re-analysis of the deposited data

How the results depend on the processing

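The sign of the 10 picked differences is fixed by their choice. Their lowest value with quantile normalization, median centring, the replicate block or an array left out was 1.86, in Acot1. Probe sets past the adjusted threshold numbered 2 with a filter at 6 log2 units, after quantile normalization, after median centring and over plain probe sets alone, and 0 otherwise. Those higher in KO at the unadjusted threshold numbered 36 with no filter, 31 with a filter at 6, and 2 to 1109 leaving out each array. Near the floor in WT, 12 probe sets were counted with a bound of 3 and 12 with a gap of 2 units, and 47 to 286 were counted leaving out each array. For the 10 genes this count was 6, 7 and 9. The mirrored count was 6, 11 and 32 to 192. List genes past the unadjusted threshold numbered 1 with quantile normalization and 0 to 12 leaving out each array. Beyond the construction of these settings, the cause was not tested. Where leaving out an array leaves 1 in its genotype, the spread comes from the other genotype. The labels do not say that equal replicate numbers mark paired samples. Their deviations from the group means correlated at 0.154 across probe sets. With the replicate block, 0 probe sets passed the adjusted threshold, 51 were higher at the unadjusted one, and 2 list genes passed it.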

Other observations

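The mirrored pattern, near the floor on both KO arrays, was shown by 14 genes. Chromosomes 8 and 12 hold 3 of them each, where 5.55% and 3.52% of the tested genes lie. Those on chromosome 12 are Serpina1b, Serpina3n and Sypl. Serpina1b, a liver-made protease inhibitor, read 2.30 on both KO arrays, against 7.97 and 7.20 in WT. Serpina3n, an acute-phase serine protease inhibitor, read 2.50 and 3.12 in KO, against 5.77 and 4.49 in WT, and Sypl, a synaptophysin-like vesicle protein gene, read 3.58 and 2.74 in KO, against 5.94 and 4.94 in WT. Over all tested genes, 1.69% on chromosome 12 passed the unadjusted threshold in either direction, beside 0.694% overall and 1.79% on chromosome 8. These shares include genes picked for their values and carry no test.

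Paip1, which encodes a partner of poly(A)-binding protein, lies beside 4833420G17Rik and Tmem267 on chromosome 13 (119428331 to 119460323) and showed the opposite pattern on 1441955_s_at, with 3.53 and 3.30 in KO, against 4.58 and 6.05 in WT. Of the 24 genes near the floor in WT, chromosomes 12 and 17 held 4 each and chromosomes 8 and 9 held 3 each. Of the tested genes, 3.52% lie on chromosome 12, 4.74% on 17, 5.55% on 8 and 5.82% on 9. The 4 on chromosome 12 are the picked genes Adi1, Acot1, Galc and Tmem196. Those on chromosome 17 were Zfp945, Zfp994, Eme2 and Riok2. Zfp945 and Zfp994 lie 621 kb apart, and Zfp994 read 4.21 and 4.46 in KO, against 3.18 and 3.06 in WT.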
